A study of Mus musculus with 24 samples.

Results

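The comparison described here is the loss of the transcription factor NRF2 in the liver of male mice on a diet of normal methionine content. Its members were the 6 NRF2 KO mice on the control diet (Con) and 5 of the 6 wild-type (WT) mice on the same diet, 11 of the 24 mice of the series, and all 13336 genes with enough counts to be tested of 15160 listed. The WT mice were Nfe2l2 fl/fl littermates, and the NRF2 KO mice, labelled Nfe2l2 fl/(Alb), carried the same floxed gene with 1 copy of Alb-cre, a Cre recombinase under the albumin promoter, a promoter active in hepatocytes, so that the deletion is aimed at these cells. Whether other liver cells also lost the gene was not tested. All mice were 5 months old by their labels. Their experimental diet, an amino acid diet with 0.86% methionine, ran from 8 weeks of age for 8 weeks by the labels. The methods add a run-in on the same diet before it, and calorimetry and a recovery period after it. The mice were killed after a 4 h fast. The other 12 mice, WT and NRF2 KO on a methionine-restricted diet (MR, 0.17% methionine), shared the estimate of the spread and served as a second comparison of the genotypes, without WT_MR_7612, which the study also left out. Whole liver RNA was counted with libraries of the 3′ ends of transcripts. The 5 WT Con libraries held 12968956 to 22068338 counts and the 6 NRF2 KO Con libraries 10974196 to 21191031. The sixth WT Con mouse, WT_CON_7604, was left out of the tests, as the study left it out as an outlier. Levels below are CPM, the counts of a gene over the total of its library on a fixed common scale, after scaling for library composition, and a fold change is that of NRF2 KO over WT on the log2 scale.

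NRF2, the product of Nfe2l2, is held in the cytosol and marked for destruction by KEAP1. When reactive molecules modify KEAP1, NRF2 enters the nucleus, pairs with a small MAF protein and binds antioxidant response elements in front of genes for glutathione synthesis and conjugation, quinone reduction, NADPH supply and drug export. The liver uses these genes to detoxify drugs, food components and its own metabolites. The circadian clock, which also appears below, is a loop in which CLOCK or NPAS2 with BMAL1 (Arntl) switches on the Per genes and Ciart, whose products in turn repress it.

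Nfe2l2 itself, a gene on the minus strand of chromosome 2 (chr2:75675513-75704641, GRCm38), had more counts at its 3′ end in NRF2 KO than in WT. In the WT Con mice WT_CON_7602, WT_CON_7603, WT_CON_7605, WT_CON_7607 and WT_CON_7608 it was at 106, 125, 117, 324 and 118 CPM. In the NRF2 KO Con mice KO_CON_7617, KO_CON_7618, KO_CON_7620, KO_CON_7621, KO_CON_7622 and KO_CON_7623 it was at 339, 249, 284, 326, 228 and 262 CPM. Values per mouse are listed in these orders below. A single WT library, that labelled WT_CON_7607, lay within the NRF2 KO range, and the other 4 lay well below it. The log2 fold change was 0.83 (SE 0.21, adjusted p = 0.045), and by a two-sided exact permutation test on log2 CPM the p was 0.0216 with all 11 mice. The call was lost in 9 of the 10 fits that left out 1 of the other mice, with the highest adjusted p at 0.129, and held without KO_CON_7622. Without WT_CON_7607 the log2 fold change was 1.27 (SE 0.10). Because that library was singled out by its Nfe2l2 count, this value is a description and no test of Nfe2l2 is given without it.

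The counts are not used as a check of the deletion. By qPCR with primers for the deleted exon, the study found less Nfe2l2 mRNA in NRF2 KO than in WT livers. That direction is opposite to the one of these counts. The deleted exon, number 5, is the last (chr2:75675513-75677184) and holds the stop codon and the whole 3′ UTR. The study's primers for this exon are shown because they place the deleted part on the gene. They match chr2:75676668-75676691 (forward) and chr2:75676410-75676435 (reverse), with 1155 and 897 bases between each and the annotated transcript end. Reads of the 3′ end would fall in this exon, and whether the counted tags lie inside the deleted stretch was not tested.
forward primer: ccatttacggagacccaccgcctg
reverse primer: ctcgtgtgagatgagcctctaagcgg

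The library labelled WT_CON_7607 also stood apart in genes that were lower in NRF2 KO on the MR diet. A score was built from the 73 genes at least 2-fold lower in NRF2 KO in a fit of the MR mice alone, so that no Con mouse chose its genes. The WT Con mice WT_CON_7602, WT_CON_7603, WT_CON_7605 and WT_CON_7608 scored 0.74, 0.64, 0.74 and 0.82, and the library labelled WT_CON_7607 scored -0.66. The 6 NRF2 KO Con mice scored -0.75 to -0.35. In 59 of those 73 genes (80.8%) the library labelled WT_CON_7607 was nearer to the NRF2 KO Con mean than to the mean of the other WT Con mice, against 49.8% over all genes. For all 374 genes lower in that fit the share was 73.5%, and for the 226 higher ones 54.4%. Among the clock genes this was so for 1 of 19 (5.26%). By the methods all mice were genotyped by PCR, and a genotyping result for this mouse was not analysed here. It was kept in the group its label gives, and the main results are given with and without it. WT_CON_7604, outside the tests, scored 0.77.

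**Figure D1:**
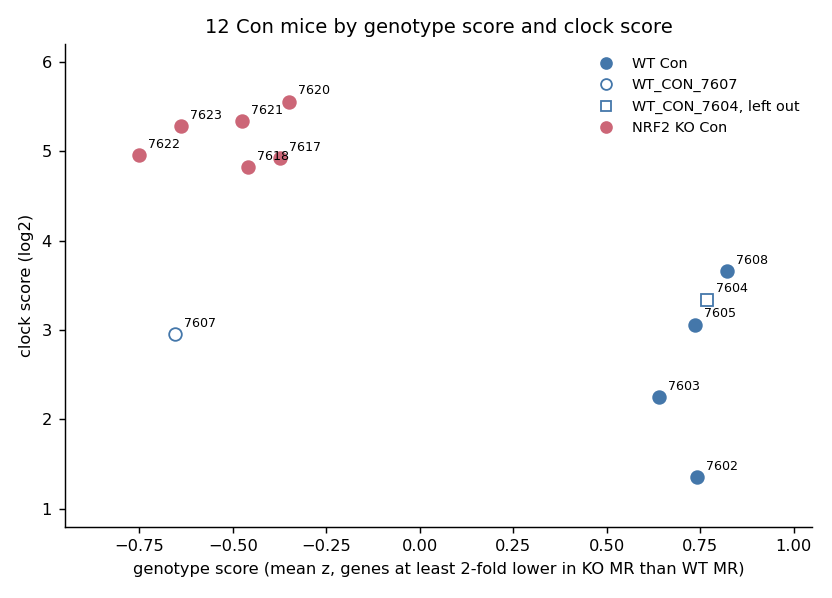
Each point is one of the 12 Con mice, placed by its clock score (log2 difference between evening and morning clock genes) and by its score over genes lower in NRF2 KO in the MR mice alone (mean z-score), with WT_CON_7604 as an open square. The library labelled WT_CON_7607 lies with the NRF2 KO mice on the second score, at -0.66, and with the WT Con mice on the clock score, at 2.95.

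Of the 13336 genes tested, 276 differed between NRF2 KO Con and WT Con (2.07%, edgeR's quasi-likelihood test, adjusted p under 0.05). In NRF2 KO 107 were higher (0.802%) and 169 lower (1.27%). With scaling by library size alone the count was 228, of which 63 were higher and 165 lower, so that the lower share went from 61.2% to 72.4%. At least 2-fold changes were seen in 18 of the higher and 52 of the lower genes. Without WT_CON_7607, 314 of 13441 genes were called (2.34%), 112 higher and 202 lower, and 229 of them were among the 276. The 6 and 5 mice did not overlap in 244 genes (1.83%), and without WT_CON_7607 in 463 (3.47%). Leaving out any mouse can only keep or raise this count, so the rise alone says nothing particular about that library. Of the called genes, 134 had no overlap, 65 higher and 69 lower.

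The 276 called genes held 29 members of the NRF2-related lists, mostly detoxification enzymes that were lower in NRF2 KO, 10 circadian clock genes and 237 others. Among the clock genes the evening genes were higher and the morning activators lower. The NRF2-related lists were NRF2 and its partners, glutathione synthesis, thioredoxin and related enzymes, quinone, carbonyl and epoxide enzymes, glutathione transferases, glucuronidation, carboxylesterases, efflux, the pentose phosphate pathway with NADPH enzymes, and heme and iron. Receptors of foreign compounds and P450 genes were kept as a list of their own. In the NRF2-related lists as a whole, 27 of 146 genes tested were lower (18.5%, against 1.27% of all genes) and 2 were higher. Those were Nfe2l2 and Rpia, an enzyme of the pentose phosphate pathway (log2 fold change 0.45, SE 0.11, adjusted p = 0.034). Without WT_CON_7607, 34 were lower, and apart from Nfe2l2, for which no test is given in that fit, none was higher. In 24 of the 27 lower genes the library labelled WT_CON_7607 was below the other 4 WT mice, and in 16 it was at or below the highest NRF2 KO mouse. Without it 25 of the 27 had no overlap between the groups, and with it 10. Of all 169 genes called lower, 69 had no overlap with that library kept. The 27 were called between these same mice, so a gap between the groups is partly built in. How often that library was the lowest WT over all genes was not counted.

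The glutathione transferases, which join glutathione to reactive compounds, had 8 of 21 members lower in NRF2 KO and none higher. All 21 log2 fold changes were below 0, with a median of -0.39 against -0.00 over all genes tested. Gstm1 was at 1431, 1279, 922, 439 and 2075 CPM in WT Con and at 250, 252, 247, 308, 271 and 365 CPM in NRF2 KO Con, so that the groups did not overlap and the library labelled WT_CON_7607 was the lowest WT. Its log2 fold change was -2.12 (SE 0.23, adjusted p = 7.3e-05). Gstm4 was at 40.6, 44.5, 32.7, 26.7 and 61.7 CPM in WT Con and at 12.7 to 21.5 CPM in NRF2 KO Con (log2 fold change -1.42, SE 0.18, adjusted p = 2.9e-04). Gstm3 was at 22 to 48.8 CPM in 4 WT mice and at 177 CPM in WT_CON_7608, and at 6.53 to 19.3 CPM in NRF2 KO (log2 fold change -2.59, SE 0.53, adjusted p = 0.012). Without WT_CON_7608 the log2 fold change of Gstm3 was -1.70 (adjusted p = 0.046). Gstm3 was an exception in that the library labelled WT_CON_7607 was not low for it, with the second highest WT value.

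Of the alpha class, Gsta2 was at 18.6, 10.3, 15.3, 3.25 and 36.4 CPM in WT Con and at 2.33, 3.45, 3.03, 1.85, 3.45 and 2.62 CPM in NRF2 KO Con. The library labelled WT_CON_7607 lay inside the NRF2 KO range. The log2 fold change was -2.63 (SE 0.42, adjusted p = 0.002). Gsta1 was near the floor, with 33, 25, 23, 1 and 193 counts in WT Con and 2, 0, 0, 3, 3 and 2 in NRF2 KO Con, and no fold is given. Gsta3, an abundant member, was at 1509 to 1536 CPM in 4 WT mice, at 854 to 1061 CPM in NRF2 KO and at 865 CPM in the library labelled WT_CON_7607 (log2 fold change -0.52, SE 0.11, adjusted p = 0.012). Gsta1 and Gsta2 are close copies of each other, as are the members within the Gstm, Ces1 and Ugt2b families, and how the counting divided reads among them is uncertain.

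Among quinone, carbonyl and epoxide enzymes 6 of 23 were lower and none higher, with a median of -0.24. Nqo1, which reduces quinones with NADPH and is a widely used NRF2 marker, was at 4.02, 5.25, 3.55, 1.59 and 6.97 CPM in WT Con and at 0.931, 0.563, 1.33, 1.12, 0.726 and 1.31 CPM in NRF2 KO Con. The groups did not overlap, although its counts were few, 22 to 166 in WT and 8 to 25 in NRF2 KO (log2 fold change -2.10, SE 0.35, adjusted p = 0.002). Ephx1, the microsomal epoxide hydrolase, was at 261, 187, 189, 104 and 281 CPM in WT Con and at 65.4 to 114 CPM in NRF2 KO Con (log2 fold change -1.26, SE 0.18, adjusted p = 5.3e-04). Aox1, an aldehyde oxidase, was at 56.7, 29.8, 26.8, 9.46 and 47.3 CPM in WT Con and at 7.39 to 10.5 CPM in NRF2 KO Con (log2 fold change -1.93, SE 0.28, adjusted p = 8.2e-04). Aox3, a related oxidase, fell by 1.23 (SE 0.26, adjusted p = 0.013). Only the library labelled WT_CON_7607 of the WT mice reached the NRF2 KO range for Ephx1 and Aox1.

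Fewer redox enzymes were called. Of 16 genes of the thioredoxin, peroxiredoxin and superoxide systems 2 were lower. Srxn1, which repairs overoxidised peroxiredoxin, was at 59.3, 75.8, 59.2, 38.1 and 90.3 CPM in WT Con and at 35.7, 22, 20.7, 37.8, 36.3 and 21.5 CPM in NRF2 KO Con (log2 fold change -1.16, SE 0.21, adjusted p = 0.0044). Txnrd1, the cytosolic thioredoxin reductase, was at 74.4, 70.3, 72.7, 56.3 and 90.9 CPM in WT Con and at 41.7 to 51.2 CPM in NRF2 KO Con (log2 fold change -0.64, SE 0.09, adjusted p = 3.1e-04). Neither overlapped between the groups. Of 13 genes of glutathione synthesis and recycling 1 was lower, Gclc, the catalytic subunit of the rate-limiting ligase. It was at 465, 493, 447, 256 and 428 CPM in WT Con and at 253, 240, 276, 275, 125 and 192 CPM in NRF2 KO Con (log2 fold change -0.88, SE 0.18, adjusted p = 0.0071). Its partner subunit Gclm was not called (log2 fold change -0.17, SE 0.09, adjusted p = 0.36).

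**Figure D2:**
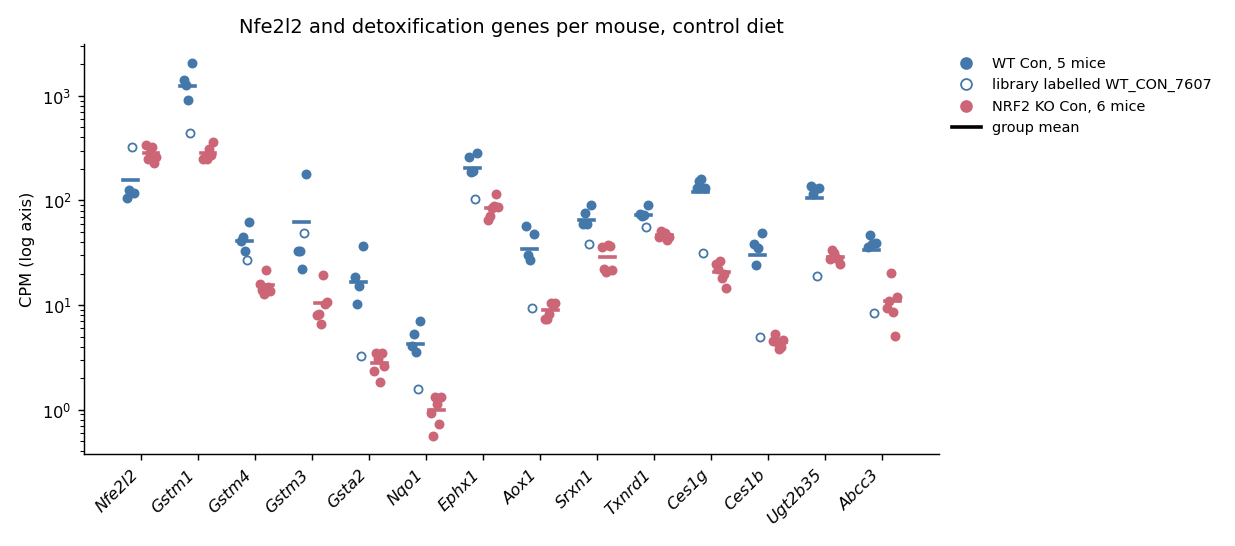
CPM on a log axis of Nfe2l2 and 13 NRF2-related genes in each Con mouse, with the bar at the group mean and the library labelled WT_CON_7607 as an open circle. For Ces1b, Ugt2b35 and Aox1 the open circle lies in or below the NRF2 KO range and the other WT mice lie above it, while Nfe2l2 shows the reverse order.

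Carboxylesterases, which split esters and amides of drugs and lipids, had 4 of 11 members lower. Ces1g was at 130, 152, 161, 31.4 and 132 CPM in WT Con and at 24.4, 22.2, 26.2, 18.1, 19.8 and 14.4 CPM in NRF2 KO Con (log2 fold change -2.54, SE 0.28, adjusted p = 7.8e-05). Ces1b was at 38.2, 24.2, 35.0, 4.98 and 48.7 CPM in WT Con and at 3.84 to 5.28 CPM in NRF2 KO Con (log2 fold change -2.77, SE 0.35, adjusted p = 3.1e-04). Ces1f and Ces2e fell by 1.22 and 0.66 on the log2 scale (adjusted p = 0.012 and 0.0043). Ces2e differed from the Ces1 genes in that the library labelled WT_CON_7607, at 142 CPM, lay among the other WT mice (138 to 159 CPM) and above NRF2 KO (73.7 to 121 CPM).

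Glucuronidation, the coupling of glucuronic acid to drugs, bilirubin and steroids, had 4 of 16 genes lower. Ugt2b35 was at 137, 116, 130, 18.9 and 131 CPM in WT Con and at 24.7 to 33.4 CPM in NRF2 KO Con, with the library labelled WT_CON_7607 below every NRF2 KO mouse (log2 fold change -1.88, SE 0.30, adjusted p = 0.0021). Ugdh, which makes the glucuronic acid donor, was at 106, 102, 80.7, 44.1 and 134 CPM in WT Con and at 30.4 to 52.5 CPM in NRF2 KO Con (log2 fold change -1.13, SE 0.20, adjusted p = 0.0043). Ugt2b5 and Ugt2b36 fell by 1.10 and 0.53 on the log2 scale (adjusted p = 0.029 and 0.038). These last calls were lost in 7 and 8 of the 11 fits that left out 1 mouse, with the highest adjusted p at 0.0808 and 0.0883. Of 12 efflux transporters Abcc3, which exports conjugates from the hepatocyte to the blood, was lower, at 36.3, 46.2, 38.4, 8.38 and 39.0 CPM in WT Con and 5.09 to 20.1 CPM in NRF2 KO Con (log2 fold change -1.59, SE 0.32, adjusted p = 0.0099).

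Other genes among the largest falls without overlap were Mapk15, an atypical MAP kinase, and Osgin1, an oxidative stress-induced growth inhibitor. Mapk15 was at 10.3, 8.44, 7.51, 1.73 and 7.14 CPM in WT Con and at 0.492 to 1.59 CPM in NRF2 KO Con (log2 fold change -2.90, SE 0.42, adjusted p = 6.7e-04). Osgin1 was at 160, 74.3, 103, 41.7 and 86.2 CPM in WT Con and at 13.3 to 36.3 CPM in NRF2 KO Con (log2 fold change -2.0, SE 0.38, adjusted p = 0.0071). Asap2 and Ddit4l fell by 1.40 and 1.25 on the log2 scale (adjusted p = 0.0028 and 0.014), and the Ddit4l call was lost without WT_CON_7603 (adjusted p = 0.058). Among the partners and regulators of NRF2, 1 of 13 was lower, Mafk, a small MAF protein (log2 fold change -0.69, SE 0.14, adjusted p = 0.0085). Keap1 was at 82.4 to 99.4 CPM in WT Con and 81.1 to 98.7 CPM in NRF2 KO Con and was not called (log2 fold change -0.06, SE 0.07, adjusted p = 0.78). Mafg was called only without WT_CON_7607 (log2 fold change -0.36, adjusted p = 0.013).

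Several families that NRF2 or related receptors can control had few called members. None of 29 xenobiotic receptor and P450 genes was called (median -0.13). Without WT_CON_7607 Cyp2a5, named after its value was seen, was lower (log2 fold change -1.32, adjusted p = 0.0069). With all 11 mice no call was made among 11 genes of heme breakdown and iron storage. Without WT_CON_7607 Fth1, the ferritin heavy chain, was among 2 of those 11 that were lower (log2 fold change -0.41, adjusted p = 0.014). Of 10 pentose phosphate and NADPH genes the only call was Rpia, described above, and it was lost in 8 of the 11 fits that left out 1 mouse, with the highest adjusted p at 0.083, without WT_CON_7607. Of 17 genes of a qPCR panel 7 were lower and none higher. The panel shares genes with the lists above and is not a separate count. The lower ones were Aox1, Txnrd1, Gclc, Ephx1, Gsta2, Nqo1 and Trib3. Of the others Atf4, the transcription factor of the amino acid response, had a log2 fold change of -0.33 (SE 0.09, adjusted p = 0.064), and Gsr, glutathione reductase, one of -0.14 (SE 0.10). Sod2, Cbr1, Mgst3, Asns and Psat1 were at 0.00, -0.19, -0.39, -0.21 and -0.31, and Cyp4a14, Fgf21 and Vldlr at 0.14, 0.17 and 0.42, all with adjusted p above 0.5.

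The promoters of the called NRF2-related genes were read for the core letters of the antioxidant response element, TGACNNNGC on either strand. Of 26 such genes with a promoter in the RefSeq table (250 bases before to 50 after the start, GRCm38.p6), 7 held it. One window from each is shown on the gene's strand because the letters are those of the element NRF2 binds, with the core in capitals, in either direction. Ugdh and Htatip2, an oxidoreductase gene whose level fell by 1.03 on the log2 scale (adjusted p = 0.0049), hold a second match in the opposite direction. The windows lie at chr2:75704885-75704913 (Nfe2l2), chr5:139791513-139791541 (Mafk), chr1:21240454-21240482 (Gsta3), chr7:49759453-49759481 (Htatip2), chr5:65435956-65435984 (Ugdh), chr10:82859104-82859132 (Txnrd1) and chr2:152105542-152105570 (Srxn1).
Nfe2l2: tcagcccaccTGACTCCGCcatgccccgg
Mafk: gatcccggaaGCGGTGTCAgtactgggga
Gsta3: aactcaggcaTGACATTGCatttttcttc
Htatip2: gtctgagctgTGACTCAGCacttccctag
Ugdh: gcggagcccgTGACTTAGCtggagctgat
Txnrd1: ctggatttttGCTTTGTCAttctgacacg
Srxn1: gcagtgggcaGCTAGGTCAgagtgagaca

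The core letters were in 16.7% of all 9936 tested genes with a promoter in the table (1661). They were in 29 of 130 genes lower in NRF2 KO (22.3%, 95% Wilson interval 16.0 to 30.2) and in 18 of 77 higher ones (23.4%). The share was thus about as high in the genes that rose as in those that fell. In genes lower on both diets it was 13 of 49 (26.5%). These are matches of letters in a short window and not binding sites, and no match says only that the letters are not in that window.

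The clock genes differed in both arms. Of 13 evening and output genes 7 were higher in NRF2 KO and none lower (median 0.96), and of 6 activator genes 3 were lower and none higher (median -0.50). The shares over all genes tested were 0.802% higher and 1.27% lower. Per1 was at 1.68, 2.13, 2.87, 5.20 and 7.65 CPM in WT Con and at 15.3, 14.1, 18.6, 12.6, 11.4 and 13.7 CPM in NRF2 KO Con (log2 fold change 1.83, SE 0.30, adjusted p = 0.0024). Per2 was at 4.24, 10.8, 13.3, 9.61 and 9.79 CPM in WT Con and at 18.3 to 26.0 CPM in NRF2 KO Con (log2 fold change 1.24, SE 0.20, adjusted p = 0.001). Ciart, a repressor of the CLOCK-BMAL1 pair, was at 0.366, 0.836, 2.56, 2.60 and 4.16 CPM in WT Con and at 5.42 to 10.8 CPM in NRF2 KO Con (log2 fold change 1.89, SE 0.39, adjusted p = 0.011). None of the 3 overlapped between the groups, and the library labelled WT_CON_7607 lay among the other WT mice.

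Per3 rose by 1.22 on the log2 scale (adjusted p = 7.3e-04). Dbp, Tef and Hlf, the PAR bZIP factors that carry clock output to liver enzymes, rose by 0.97, 0.96 and 0.56 (adjusted p = 0.0051, 6.7e-04 and 0.019). Usp2 was at 5.70 to 68.4 CPM in WT Con and 43.6 to 134 CPM in NRF2 KO Con and did not pass (log2 fold change 1.69, SE 0.46, adjusted p = 0.064). Noct, outside the list and named for its large rise, whose product acts on NADP and lipid metabolism, was at 2.05, 2.81, 3.03, 3.90 and 8.28 CPM in WT Con and at 9.85 to 17.8 CPM in NRF2 KO Con (log2 fold change 1.76). On the activator side Arntl was at 4.02, 3.57, 1.77, 1.37 and 1.09 CPM in WT Con and at 0.621, 0.633, 0.478, 0.0662, 0.726 and 0.656 CPM in NRF2 KO Con (log2 fold change -2.13, SE 0.38, adjusted p = 0.003). Npas2 had 17, 11, 20, 12 and 9 counts in WT Con and 4, 3, 1, 2, 3 and 0 in NRF2 KO Con. Clock was at 34.5 to 45.1 CPM in WT Con and 20.3 to 29.5 CPM in NRF2 KO Con (log2 fold change -0.60, SE 0.09, adjusted p = 7.3e-04).

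**Figure D3:**
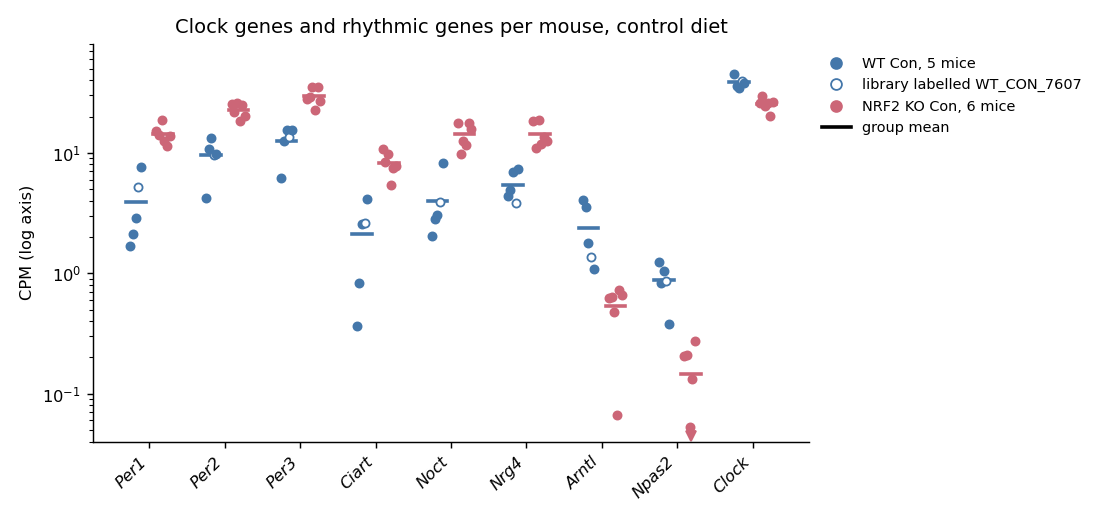
CPM on a log axis of 9 clock and clock-output genes in each Con mouse, with the bar at the group mean, the library labelled WT_CON_7607 as an open circle and a triangle for the 1 NRF2 KO mouse with no Npas2 count. The open circle lies among the other WT mice for the clock genes and is the lowest WT for Nrg4, the Per genes, Ciart, Noct and Nrg4 are higher in NRF2 KO and Arntl, Npas2 and Clock are lower.

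A clock score was set for each mouse as the mean log2 CPM of 7 evening genes (Nr1d1, Nr1d2, Dbp, Tef, Per2, Per3 and Ciart) less that of 3 morning genes (Arntl, Npas2 and Clock). In WT Con it was 1.36, 2.25, 3.06, 2.95 and 3.66, the fourth value here being the library labelled WT_CON_7607. It was higher in every NRF2 KO Con mouse, at 4.91, 4.81, 5.55, 5.33, 4.95 and 5.27. The means were 2.66 ± 0.88 (SD, n = 5) and 5.14 ± 0.29 (SD, n = 6), and the groups did not overlap. Most genes of the score were themselves called between these mice, so this separation describes those genes again and adds no support. On the MR diet they were 4.31 ± 0.62 in WT and 5.22 ± 0.32 in NRF2 KO. Nr1d1 was at 58.9 to 83.8 CPM in WT Con and 54.8 to 83.2 CPM in NRF2 KO Con (log2 fold change -0.14, adjusted p = 0.65). The hour at which each mouse was killed was not given in the sources used here, and a change of the clock and a difference in hour cannot be told apart.

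When the clock score entered the fit as a covariate, edgeR called 0% of genes between NRF2 KO Con and WT Con, with 1290 genes at an unadjusted p under 0.05. In that fit the log2 fold changes of Gstm1, Gstm4, Ces1g, Ces1b and Txnrd1 were -2.18, -1.49, -2.34, -2.66 and -0.65, near their values without the covariate. Other lower genes moved more. Gclc, Osgin1, Aox3 and Ugt2b5 fell less, at -0.59, -0.94, -0.65 and -0.43. Nqo1 and Gstm3 fell more, at -2.55 and -3.90. These are examples and not all of the lower genes. Without WT_CON_7607 the same fit called 21 of 13441 genes (0.156%), 20 of them lower, and 19 were among the 276. The 21 held Gstm1, Gstm4, Gsta1, Gsta2, Nqo1, Ephx1, Aox1, Txnrd1, Ces1b, Ces1g, Ugt2b35 and Abcc3, all lower. The single higher one was Nfe2l2 (log2 fold change 1.14), given as a description since the library was left out for its Nfe2l2 count, and with the library kept its value was 0.44 (adjusted p = 0.77). Because the score separates the Con groups, genes that follow it can hardly be called in this fit. Outside the lists and chosen after their values were seen, Entpd5, an enzyme of the endoplasmic reticulum, was also among the 21. It was at 118, 130, 117, 64.9 and 138 CPM in WT Con and at 55.2 to 72.2 CPM in NRF2 KO Con (log2 fold change -0.80, SE 0.14, adjusted p = 0.002).

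The E-box CACGTG, which reads the same on both strands and is the motif of CLOCK and BMAL1, was searched after these values were seen. It was in 11.7% of all promoters, in 14 of 77 promoters of genes higher in NRF2 KO (18.2%, 95% Wilson interval 11.2 to 28.2, which includes the share of all promoters) and in 4 of 11 evening clock genes (36.4%, interval 15.2 to 64.6). The NRF2 core letters were also in 4 of those 11. Among other genes with the largest rises and no overlap, A930033H14Rik was at 3.14, 4.11, 3.86, 2.75 and 5.76 CPM in WT Con and at 9.11 to 18.6 CPM in NRF2 KO Con (log2 fold change 1.70, SE 0.35, adjusted p = 0.011). Nrg4, a secreted ligand of the ErbB family, was at 4.39, 4.87, 6.89, 3.83 and 7.27 CPM in WT Con and at 11.1 to 18.7 CPM in NRF2 KO Con (log2 fold change 1.38, SE 0.20, adjusted p = 6.5e-04). Aacs, which activates acetoacetate for lipid synthesis, and Lpin1, a phosphatidate phosphatase and coactivator, rose by 1.23 and 1.07 on the log2 scale (adjusted p = 9.9e-04 and 0.0032). Tedc2 and Fam47e rose by 1.03 and 1.12 (adjusted p = 7.3e-04 and 5.8e-04). Tsc22d3, a glucocorticoid-induced gene, rose by 1.02 (adjusted p = 0.026), with KO_CON_7622 at 35.6 CPM and the other 5 at 53.3 to 66.4 CPM. That call was lost in 5 of the 11 fits that left out 1 mouse, with the highest adjusted p at 0.0791.

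The metabolic and stress lists held at most 2 called genes each. Over all genes tested 0.802% were higher and 1.27% lower. Of 14 genes of glucose metabolism and insulin response 2 rose, Gys2, the liver glycogen synthase (log2 fold change 0.74, adjusted p = 7.4e-04), and Foxo1, a transcription factor of the fasting response (0.50, adjusted p = 0.0067). Of 16 genes of bile acid synthesis and transport the only call was Nr1h4, the bile acid receptor FXR, which rose by 0.48 (adjusted p = 0.003). Hspa8, a constitutive chaperone, rose by 0.45 (adjusted p = 0.0061) and Herpud1, a gene of protein disposal at the endoplasmic reticulum, by 0.77 (adjusted p = 0.0049). They were the only calls in their lists, of 14 heat shock genes and 16 endoplasmic reticulum genes. Dgat2, of triglyceride synthesis, and the zinc transporter Slc39a14 rose by 0.47 and 0.38 (adjusted p = 0.042 and 0.03), and each call was lost in 7 of the 11 fits that left out 1 mouse. No other call was made among the 18 genes of fatty acid synthesis and the 6 metallothionein and zinc genes that hold them. Of 24 ATF4 targets, genes of the amino acid response, Trib3 fell, at 13.8 to 23.4 CPM in WT Con and 5.82 to 13.0 CPM in NRF2 KO Con (log2 fold change -0.86, SE 0.18, adjusted p = 0.0099).

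Of 14 immediate early genes Junb fell, at 48.7, 37.8, 50.5, 46.6 and 38.3 CPM in WT Con and at 22.9 to 33.5 CPM in NRF2 KO Con (log2 fold change -0.66, SE 0.12, adjusted p = 0.0045). Nr4a1, a nuclear receptor gene of the same rapid kind outside that list, fell by 1.5 (adjusted p = 0.0033). Egr1 was at 10.5 to 55.3 CPM in WT Con and 6.26 to 18 CPM in NRF2 KO Con and did not pass (log2 fold change -1.09, SE 0.43, adjusted p = 0.24). Of 77 cytosolic ribosomal protein genes none was called (median 0.05). Of 22 male-biased liver genes none was called. No call was made among genes of cholesterol synthesis, PPAR-alpha targets, the growth hormone and IGF1 axis, interferon-stimulated genes, antigen presentation, acute phase proteins or the cell cycle, nor among the pericentral and periportal genes of the lobule. Without WT_CON_7607 Angptl4, a PPAR-alpha target, was higher (log2 fold change 0.88, adjusted p = 0.011) and Oasl1, an interferon-stimulated gene, was lower (-0.92, adjusted p = 0.0087), both named after their values were seen.

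The markers of liver cell types were compared because the libraries came from whole liver, in which fewer cells of a type and less RNA per cell cannot be told apart. None of 12 hepatocyte markers was called, and their summed level, led by Alb, was 111812 ± 11429 CPM in WT Con (SD, n = 5) and 127655 ± 5941 CPM in NRF2 KO Con (SD, n = 6). None of 14 Kupffer cell, 13 stellate cell and matrix or 13 endothelial markers was called. Without WT_CON_7607 the endothelial marker Stab2, named after its value was seen, was higher (log2 fold change 0.30, adjusted p = 0.044). The sums of these lists were 701 ± 95.9 against 652 ± 101 CPM, 696 ± 153 against 648 ± 31.6 CPM and 545 ± 31.0 against 551 ± 21.7 CPM. Of 7 bile duct cell markers Spp1 was lower (log2 fold change -0.90, adjusted p = 0.03), with a list median of -0.62 and a sum, led by Sox9, of 68.2 ± 11.8 CPM in WT Con and 47.8 ± 7.5 CPM in NRF2 KO Con. The Spp1 call was lost in 6 of the 11 fits that left out 1 mouse, with the highest adjusted p at 0.101. The 3 neutrophil markers summed to 11 ± 2.66 and 6.79 ± 1.14 CPM, with none called. B cell, T and NK cell, red blood cell, adipocyte and acinar markers held no call, with only 3 adipocyte markers and 1 acinar marker tested. That acinar marker, Cela1, was at 34.7 CPM in WT Con and 61.5 CPM in NRF2 KO Con (log2 fold change 0.83, SE 0.27, adjusted p = 0.13). No tested marker was at 0 in all 11 mice, which the filter on counts makes likely in advance. Markers in the count table that were not tested were not checked for this. The table lacks some listed markers, holding 5 of 9 for neutrophils, 4 of 6 for adipocytes and 7 of 9 for acinar cells, and the part of these cell types in the lower genes was not tested.

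The MR mice gave the same comparison of genotypes in other animals. There 258 genes were called (1.93%), 74 higher (0.555%) and 184 lower (1.38%). The genes called on both diets numbered 72, which is 26.1% of the Con calls and 27.9% of the MR calls, and 71 had the same direction. Of the 169 genes lower on Con 60 were lower on MR (35.5%), and of the 107 higher genes 11 were higher on MR (10.3%). Without WT_CON_7607, 113 genes were called on both diets, with 96 of 202 lower ones (47.5%) and 16 of 112 higher ones (14.3%) in the same direction.

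The detoxification enzymes were among the shared genes. All 29 called members of the NRF2-related lists had the same sign on MR and 25 were called there in the same direction. Gstm1 and Gclc fell by 2.71 and 1.41 on the log2 scale on MR (adjusted p = 6.2e-07 and 2.9e-05), and Ugt2b5 by 2.27 (adjusted p = 2.4e-05). The 10 called clock genes also had the same sign on MR, and 2 were called there, Per2 (log2 fold change 0.84, adjusted p = 0.019) and Clock (-0.36, adjusted p = 0.041). Per1 and Arntl were at 0.35 and -0.64 on MR and were not called. No clock gene passed the test of the difference between the diets, so a smaller clock difference on MR is a description of the values only. Fam47e was among the few genes higher on both diets (0.89 on MR, adjusted p = 0.0021).

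**Figure D4:**
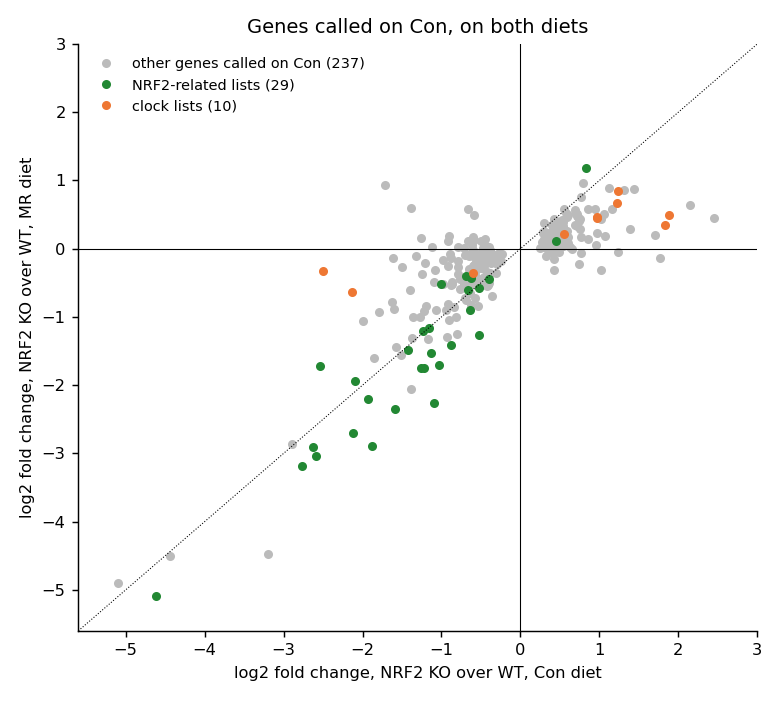
Each point is 1 of the 276 genes called on the Con diet, with its log2 fold change between the genotypes on Con on the horizontal axis and on MR on the vertical axis. The 29 genes of the NRF2-related lists keep their sign on MR, the 10 clock genes lie nearer to the horizontal axis, and of all 276 genes 244 (88.4%) had the same sign on both diets, against 59.9% of all genes tested.

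A test of the difference between the diets, the interaction of genotype and diet, called 6 genes (0.045%), of which 2, Junb and Rell1, were also among the 276. Junb fell on Con (from 44.4 to 28.2 CPM) and rose on MR (from 27.5 to 41.1 CPM), with an interaction of 1.24 on the log2 scale (adjusted p = 0.00197). Rell1, a TNF receptor family relative named here after its value was seen, was at 54.3 CPM in WT Con and 36.0 CPM in NRF2 KO Con and at 40.0 and 43.8 CPM on MR (interaction 0.72, adjusted p = 0.041). Abcc4, an efflux transporter, was alike in WT Con and NRF2 KO Con in its means, 2.58 and 2.67 CPM, and was at 24.4 CPM in WT MR and 4.10 CPM in NRF2 KO MR (interaction -2.60, adjusted p = 0.00197). No detoxification gene described above as lower on Con passed this test.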

How the data were processed

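Livers of 24 male mice were profiled with 3′ end libraries (QuantSeq), and the authors deposited raw read counts per gene, made with the Lexogen QuantSeq pipeline on GRCm38 (mm10), and a normalised signal. The deposited signal equalled the counts divided by 1 size factor per mouse (largest relative deviation 5.1e-15) and was used only for that check. The submitters' notes name R 3.4.3 and DESeq2 1.18.1. The 15160 genes listed had at least 72 counts over the 24 mice.

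The counts of 22 mice (without WT_CON_7604 and WT_MR_7612, left out by the study) were fitted with edgeR 4.0.16 in R 4.3.3 (TMM scaling, filterByExpr, robust quasi-likelihood, prior count 2), a mean per group, with Benjamini-Hochberg adjustment over all 13336 genes tested and a threshold of 0.05. Each group was compared through its contrast, and the fit was repeated without WT_CON_7607. Single values used exact permutation tests. Scripts were tested on simulated data. Alternatives were other scaling, filters, limma 3.58.1, DESeq2 1.42.0, other sets of mice, the clock score as a covariate and leaving out each mouse. Promoter sequences came from RefSeq. Intervals cover counting error only. Each library was 1 mouse.

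Genes named were Nfe2l2, the 12 largest rises and falls among called genes with a mean of at least 1 CPM and no overlap, up to 4 called members of each of 45 lists by size of change (the most abundant 2 where fewer than 2 were called), the study's qPCR genes, and called NRF2-related genes whose promoter holds the motif. A gene that met this rule is not reported here. Further genes were chosen after their values were seen. The members and lists were chosen with earlier results of these data known.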

Additional observations from a re-analysis of the deposited data

Results flagged for a closer look

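In each group of 5 or 6 Con mice, the highest or lowest mouse was tested for lying far from the rest. The 254 tests covered the named genes and the clock score. Chance marks about 1 in 20 such groups, and 19 were marked, 9 of them in the library labelled WT_CON_7607. In CPM that library stood apart from the other 4 WT Con mice with Nfe2l2 at 324, Mapk15 at 1.73, Ces1g at 31.4, Gclc at 256, Ugt2b35 at 18.9, Ugt2b5 at 129, Ugt2b36 at 275, Ces1f at 55.2 and Abcc3 at 8.38. Its Nfe2l2 count is the value that singled the library out before and adds no support here. Nfe2l2 was the high one and the others, conjugation enzymes, esterases, a ligase of glutathione synthesis, a transporter and a kinase, were low.

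WT_CON_7602 was the lowest of its group for Per2 (4.24 CPM), Per3 (6.21 CPM) and Aacs (17.2 CPM). WT_CON_7603 was highest for Ighm, an immunoglobulin chain (7.22 CPM), and WT_CON_7608 was lowest for Fgb, a fibrinogen chain (5420 CPM). Among NRF2 KO Con mice, KO_CON_7622 was lowest for Tsc22d3 (35.6 CPM) and for the bile acid transporter Slco1b2 (1580 CPM). KO_CON_7621 was lowest for Arntl (0.0662 CPM), KO_CON_7620 for Asns, asparagine synthetase (1.38 CPM), and KO_CON_7618 for Acot3, a peroxisomal thioesterase (11.7 CPM).

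A test of the interaction marked 6 genes whose difference between genotypes was not the same on the 2 diets. The log2 interaction was -2.60 for Abcc4, 1.24 for Junb, -1.73 for Nrxn2, -0.65 for Abcg2, 3.77 for Egr1 and 0.72 for Rell1. Egr1, an immediate early gene, was at 21 CPM in WT Con, 9.93 CPM in NRF2 KO Con, 9.56 CPM in WT MR and 59.8 CPM in NRF2 KO MR. Its WT Con mean rests on WT_CON_7602 at 55.3 CPM, with the other 4 at 10.5 to 17.4 CPM. Abcg2, an efflux transporter, was at 71.8, 61.8, 70.5 and 38.7 CPM in the same order, and Nrxn2 at 5.66, 5.99, 16.9 and 5.39 CPM.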

How the results depend on the processing

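The 276 called genes became 448 with DESeq2, 99 with the 11 Con mice alone, 152 with the Con mice alone without WT_CON_7607, 0 with the clock score or the first clock component as a covariate (1290 and 1659 genes at an unadjusted p under 0.05) and 21 with the clock score without WT_CON_7607. Leaving out 1 mouse gave 181 to 314. Genes called on both diets, 72, became 113 without WT_CON_7607 and 0 and 0 with the clock covariates, and 19 of the 21 Con calls with the clock score without WT_CON_7607. The fold change of Nfe2l2 was no longer called with library size scaling (0.76), without a filter (0.84), with the Con mice alone (0.84) or with the clock covariates (0.44 and 0.58), and ranged from 0.71 to 1.27 without 1 mouse. With the Con mice alone the calls of Ciart, Gstm3, Gclc, Aox3, Ugt2b35, Ugdh, Ugt2b5, Ugt2b36, Ces1f, Abcc3, Rpia, Trib3, Dgat2, Slc39a14 and Spp1 were also lost, with fold changes near those of all mice (Ciart 1.91 against 1.89). With the clock score Gstm1 stayed at -2.18 and Ces1b at -2.66, while Ugt2b5 was at -0.43 and Gstm3 at -3.90. In that fit Ciart turned to -0.20 and Arntl to 0.054. With the clock component Ciart turned to -0.76, Per2 to -0.051 and Per3 to -0.0077, and with the clock score without WT_CON_7607 Ciart turned to -0.13. These covariates hold the same genes. The cause of the other shifts was not tested. The promoter share of lower genes was 3.85% for the longer core with G as a further letter (4.52% of all promoters) and 10% for TGAGTCA (4.72% of all), in place of 22.3% (16.7% of all). Of 55 called genes that met the naming rule, 45 remained called in all 11 fits without 1 mouse. Depth limits Gsta1, Npas2, Arntl, Nr4a1, Mapk15 and Nqo1, each with at most 30 counts in any NRF2 KO Con mouse. No paired analysis was made, because the labels used here give no litters or pairs and the groups share no replicate numbers.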

Other observations

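WT_CON_7604, a WT Con mouse outside the tests, was scaled with the other 11 Con mice. It was above all 5 other WT Con mice in 18 of 24 ATF4 targets, 7 of 7 B cell markers and 10 of 14 immediate early genes, and below them in 22 of 25 genes of cholesterol synthesis, 14 of 18 of fatty acid synthesis and 10 of 12 pericentral genes. Over all genes it was above the 5 in 24.6% and below them in 22%. Srxn1 was at 323 CPM in it and at 36.7 to 87.0 CPM in the other WT Con mice, Trib3 at 84.3 against 13.3 to 22.6 CPM, and Cyp2e1, the pericentral ethanol-inducible P450, at 799 against 2168 to 2428 CPM.

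Outside the lists, and chosen after their values were seen, 9130409I23Rik and Gm18635 were near 0 in every NRF2 KO Con mouse and in the library labelled WT_CON_7607. The first was at 8.55, 5.85, 8.30, 0.144 and 4.24 CPM in WT Con and at 0.0704 to 0.454 CPM in NRF2 KO Con. Gm18635 was at 4.39, 4.26, 5.17, 0.144 and 5.67 CPM in WT Con and at 0.211 to 0.584 CPM in NRF2 KO Con. On the MR diet the log2 fold changes of the genotypes were -4.50 and -4.48 (adjusted p = 2.4e-05 and 2.1e-06).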
